A study of Arabidopsis thaliana with 10 samples.

Results

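The chloroplast genome of Arabidopsis encodes subunits of the NDH complex, and 10 of them, ndhA, ndhC, ndhD, ndhE, ndhF, ndhG, ndhH, ndhI, ndhJ and ndhK, were followed here across the arrays of the study. They are the chloroplast ndh genes that the array annotation pairs, alone, with a probe set, which gave 10 of 22810 probe sets, and ndhB was set apart because it lies in the inverted repeat and its probe set reads both copies. Leaf transcripts were read on 10 Affymetrix ATH1 arrays, in a search for genes that depend on AtCPSF30, the Arabidopsis relative of a polyadenylation factor subunit. The *oxt6* plants (3 arrays) carry a T-DNA insertion in At1g30460 and, by the account of the study, lack both mRNAs of that gene. The complemented plants, written oxt6:AtCPSF30 in the labels (4 arrays), are the same mutant with a genomic fragment, under its own upstream sequence, that makes the smaller AtCPSF30 protein but not the larger one, and they comprise 2 independent transformants, lines 5 and 6, with 2 arrays each. The wild-type plants (3 arrays) are Columbia, which is also the background the labels give for every sample. All plants were grown for 30 days in soil at 22 to 26 °C with 8 hours of light and 16 hours of dark, and each sample was RNA from a pool of 10 to 15 plants. The study kept the RNA preparations that it judged best by gel electrophoresis. The ratio of 3' to 5' control signal, given below, still differed between complemented and other arrays. Samples are labelled as biological replicates.

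The NDH complex sits in the thylakoid membrane, where it passes electrons from ferredoxin to plastoquinone and pumps protons, and it serves cyclic electron flow around photosystem I and chlororespiration. It is related to respiratory complex I. Its membrane arm holds NdhA to NdhG and its stromal arm holds NdhH to NdhK, and nuclear genes supply the remaining subunits and the factors that assemble the complex and edit its mRNAs. Most ndh genes are transcribed together: ndhH, ndhA, ndhI, ndhG, ndhE, psaC and ndhD form a long unit in that order, ndhC, ndhK and ndhJ form another, and ndhF stands alone. Long precursors are then cut and trimmed into shorter mRNAs, and in chloroplasts, unlike in the cytosol, an added poly(A) tail marks an RNA for decay. The standard Affymetrix labelling primes on poly(A), so the intensity of a chloroplast probe set need not follow the amount of its RNA in the leaf. In bulk leaf RNA, fewer cells of a type and less RNA per cell cannot be told apart.

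The values are PLIER intensities as deposited, on a linear scale with a floor of 16, and no ndh member stood at the floor in any array. How precise a value can be is limited by the few arrays in each group. Changes are given as log2 differences of the intensity plus 1, from a limma fit to the 12453 probe sets with the highest mean log2 intensity, and a member was called where its Benjamini-Hochberg adjusted p was under 0.05. Of the 10 members 9 were bright enough to be tested. The dim ndhF was fitted only when all 22746 probe sets other than controls were kept. The probe set of At1g30460 recognises only its larger mRNA. It read 27.1, 54.7 and 38.1 in *oxt6*, 16.0, 18.7, 16.0 and 16.0 in complemented plants, and 39.2, 38.7 and 71.2 in the wild-type. The *oxt6* and wild-type readings thus overlapped. The complemented readings lay below those of *oxt6*, although by the account of the study *oxt6* lacks this mRNA too. Ribulose bisphosphate carboxylase activase (RCA), the only named probe set among 6 leaf markers, read 3351, 712 and 631 in *oxt6*, 6067, 6043, 8232 and 7673 in complemented plants, and 1504, 1569 and 1140 in the wild-type. It was called in both comparisons with complemented plants, 6.05-fold lower in *oxt6* than in complemented plants (log2 -2.60, limma adjusted p = 1.43e-04) and 4.99-fold higher in complemented plants than in the wild-type (log2 2.32, limma adjusted p = 3.31e-04), but not in *oxt6* against the wild-type (log2 -0.28, 95% interval -1.28 to 0.72). The part of this leaf marker in the ndh results was not tested. EXPA7, a root hair expansin and the only named probe set among 4 root markers, read at most 56.9, and the flower and seed markers chosen have no named probe set here.

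For the control transcripts of actin, GAPDH and ubiquitin, the log2 ratio of 3' to 5' probe sets, averaged over the 3 genes, was 2.24 ± 1.0 in *oxt6* (SD, n = 3) and 0.039 ± 0.069 in complemented plants (SD, n = 4), against 2.18 ± 0.18 in the wild-type (SD, n = 3). The 4 complemented arrays stood apart from the other 6 in this measure, and *oxt6* replicate 1 was low for its group at 1.09 and had the most probe sets at the floor, 2920. This signal moves with every comparison to the complemented plants, and there it and the complemented genotype cannot be told apart. The mean log2 level of the 10 ndh members ran from 8.90 to 9.21 in *oxt6*, from 8.02 to 8.29 in complemented plants and from 8.46 to 8.99 in the wild-type. The complemented arrays were thus lowest in both the 3'/5' signal and the mean ndh level.

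**Figure D1:**
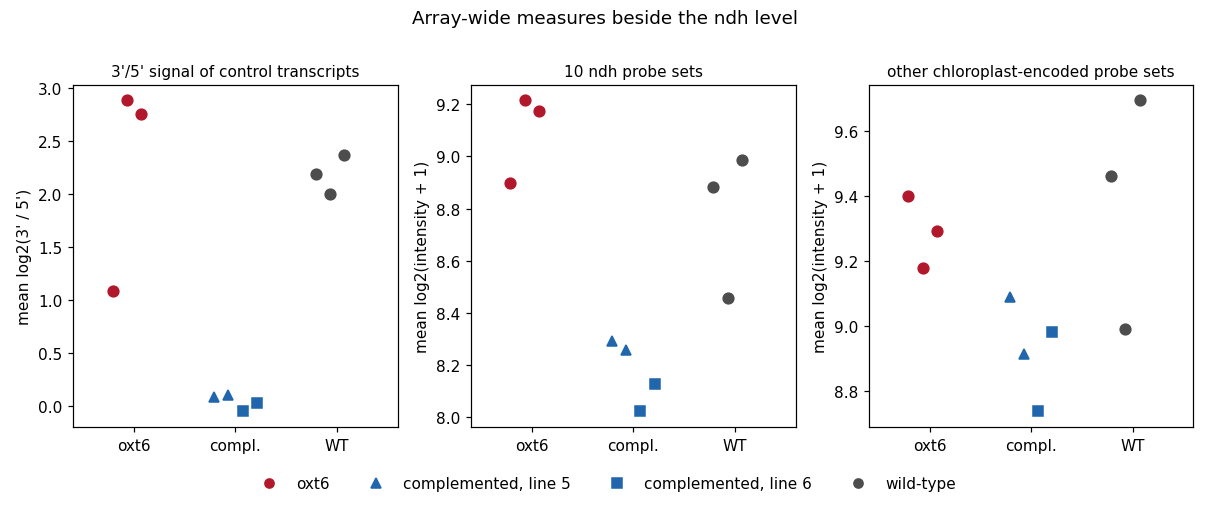
Each point is 1 array, grouped as *oxt6*, complemented (line 5 triangles, line 6 squares) and wild-type (WT). The left panel gives the mean log2 ratio of 3' to 5' control probe sets, the middle panel the mean log2(intensity + 1) of the 10 ndh probe sets, and the right panel the same mean over 62 other chloroplast-encoded probe sets. The 4 complemented arrays lie between -0.053 and 0.103 on the left and below the other groups in the middle panel.

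The stromal arm docks the electron donor and carries the iron-sulfur path to the quinone. NdhH, the counterpart of the bacterial complex I subunit that lines the quinone pocket, had a probe set that read 79.4, 86.9 and 90.6 in *oxt6*, 73.6, 72.9, 96.4 and 93.8 in complemented plants (lines 5, 5, 6 and 6, the order used throughout), and 30.4, 23.5 and 18.4 in the wild-type. All 7 arrays of the mutant background lay above the 3 wild-type arrays, while *oxt6* and complemented arrays overlapped. In *oxt6* ndhH was 3.51-fold higher than in the wild-type (log2 1.81, SE 0.20, limma adjusted p = 3.46e-05), and in complemented plants it was 3.43-fold higher than in the wild-type (log2 1.78, SE 0.19, adjusted p = 3.72e-06). Between *oxt6* and complemented plants its difference was 0.03 with a 95% interval of -0.37 to 0.44, which did not pass the test (adjusted p = 0.879).

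NdhI binds iron-sulfur clusters on the way to the quinone. Its probe set read 3781, 3983 and 4152 in *oxt6*, 1886, 1625, 2469.9 and 2391 in complemented plants, and 3713, 3928 and 4193 in the wild-type. The *oxt6* and wild-type arrays covered the same range, and all 4 complemented arrays lay below them. The log2 difference between *oxt6* and the wild-type was 0.01 (95% interval -0.38 to 0.40), and ndhI was 1.92-fold higher in *oxt6* than in complemented plants (log2 0.94, SE 0.17, adjusted p = 2.34e-04).

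NdhJ, a subunit of the same arm, read 653, 589.6 and 734 in *oxt6*, 200.2, 175, 107 and 161 in complemented plants, and 629, 339 and 1022 in the wild-type. The wild-type arrays spread around the *oxt6* ones, and the complemented arrays lay below both. In *oxt6* ndhJ was 4.16-fold higher than in complemented plants (log2 2.06, SE 0.31, adjusted p = 6.20e-05). NdhK, which carries the last iron-sulfur cluster before the quinone, read 63.5, 106.6 and 85.3 in *oxt6*, 175, 168.5, 134.9 and 163.9 in complemented plants, and 95, 52 and 156 in the wild-type. Here the complemented arrays were the high ones, clear of *oxt6* but not of the wild-type, whose replicate 3 lay among them. The difference of *oxt6* from complemented plants was a log2 of -0.93 (SE 0.29, adjusted p = 0.0120).

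The membrane arm moves protons, and NdhA joins it to the stromal arm. The ndhA gene holds an intron. Its probe set read 589.1, 765 and 669 in *oxt6*, 376, 419, 550 and 548 in complemented plants, and 204, 189.9 and 168 in the wild-type. The groups did not overlap, with *oxt6* highest and the wild-type lowest. In *oxt6* ndhA was 3.57-fold higher than in the wild-type (log2 1.84, SE 0.20, adjusted p = 2.46e-05). In complemented plants it remained 2.49-fold higher than in the wild-type (log2 1.32, SE 0.18, adjusted p = 2.94e-05).

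NdhG and NdhE are small subunits of the proton path, encoded next to each other. The probe set of ndhG read 682, 801 and 792 in *oxt6*, 130.2, 164, 63.1 and 72.1 in complemented plants, and 656, 569.5 and 655 in the wild-type. That of ndhE read 777, 1027 and 1037 in *oxt6*, 212, 188, 105 and 106 in complemented plants, and 1059, 673 and 1129 in the wild-type. For both genes the complemented arrays were far below all others, and the line 6 arrays were below the line 5 arrays. In *oxt6* ndhG was 7.55-fold higher than in complemented plants (log2 2.92, SE 0.28, adjusted p = 1.70e-06) and ndhE 6.43-fold higher (log2 2.69, SE 0.27, adjusted p = 2.75e-06).

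NdhD is a large antiporter-like subunit whose start codon is made by RNA editing. It read 2690.1, 3469.9 and 3614 in *oxt6*, 2624, 1977, 1357 and 1632 in complemented plants, and 5124, 3483 and 5804 in the wild-type. Wild-type replicate 2 lay among the *oxt6* arrays and the other 2 wild-type arrays above them. The log2 difference of *oxt6* from the wild-type was -0.54 with a 95% interval of -1.09 to 0.01 (adjusted p = 0.131). Against complemented plants ndhD was 1.75-fold higher in *oxt6*, although line 5 replicate 1 came close to the lowest *oxt6* array. NdhC, a short subunit at the joint with the stromal arm, read 2014, 1783 and 1538 in *oxt6*, 2516, 2850.1, 2900.5 and 2671 in complemented plants, and 2173, 1651 and 1830.2 in the wild-type. The complemented arrays were highest for ndhC, clear of both other groups.

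NdhF, the antiporter-like subunit at the far end of the arm, had a dim probe set, with 27.1, 61.9 and 55.1 in *oxt6*, 25.3, 26.1, 26.0 and 24.3 in complemented plants, and 47.7, 38.7 and 63.8 in the wild-type. The complemented arrays were nearly equal and close to the floor, and *oxt6* replicate 1 read almost as low. In the fit to all probe sets ndhF differed by a log2 of -0.11 between *oxt6* and the wild-type (adjusted p = 0.862). In the same fit it was lower in complemented plants than in the wild-type (log2 -0.92, SE 0.26, adjusted p = 0.00660).

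**Figure D2:**
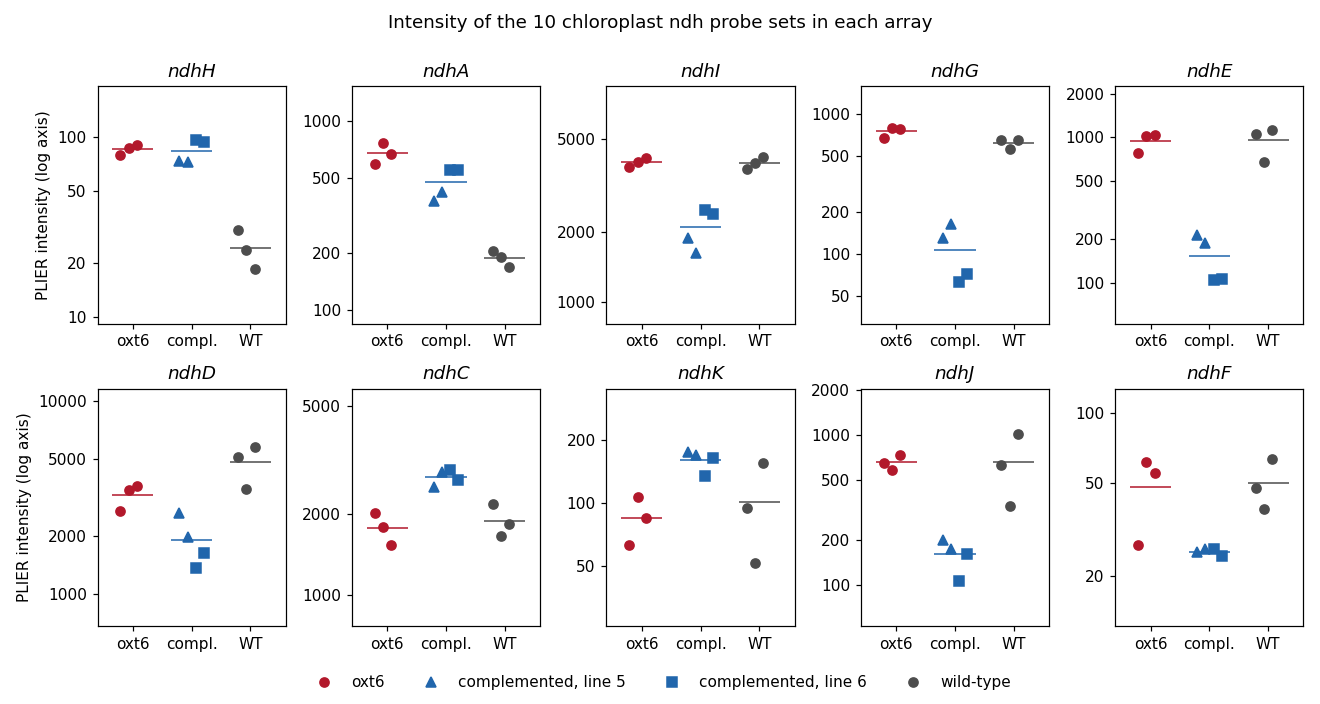
PLIER intensity (log axis, each panel with its own range) of the 10 ndh probe sets in each array, with *oxt6* left, complemented plants (compl., line 5 triangles, line 6 squares) in the middle and wild-type (WT) right. Horizontal lines are group means. In the ndhH panel the 7 arrays of *oxt6* and complemented plants lie at 72.9 or above and the 3 wild-type arrays at 30.4 or below, and in the ndhG panel the complemented arrays lie at 164 or below and all others at 569.5 or above.

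The first comparison, *oxt6* against the wild-type, asks which ndh transcripts change when both proteins of At1g30460 are missing. A pair of neighbours, ndhH and ndhA, which start the long unit, was higher in *oxt6*, by 3.51-fold and 3.57-fold. For ndhH the fold is taken over wild-type readings near the floor. Its probe set ranked 10056 by mean level over all arrays, and its bright *oxt6* and complemented arrays carried it through the filter. Its wild-type arrays alone read below those of ndhF, which was too dim to be tested. The ndhH call counted below thus concerns a member kept through the groups where it is high. It was also called with no filter, where 14.5% of all probe sets were. The next genes of the same unit, ndhI, ndhG, ndhE and ndhD, did not pass the test, with log2 differences of 0.01, 0.27, 0.01 and -0.54. Nor did the genes of the other unit, ndhC, ndhK and ndhJ, with -0.08, -0.14 and 0.12. Of 9 members tested 2 were called higher, where 16.4% of all 12453 probe sets were, and 0 were called lower, where 12.3% of all were. At an unadjusted p under 0.05 limma and the methods' t-test both gave 2 higher and 0 lower, and by limma 20.8% of all probe sets were then higher and 18.8% lower. The median over the 9 members was 0.01, against -0.04 over all probe sets tested.

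The step within the long unit lay between ndhA and ndhI, a boundary singled out after the values were seen. Within each array the log2 intensity of ndhA minus that of ndhI ran from -2.68 to -2.38 in *oxt6* and from -4.63 to -4.18 in the wild-type, with no overlap. For the pair ndhH and ndhA the same quantity ran from -3.12 to -2.87 in *oxt6* and from -3.13 to -2.71 in the wild-type, and so moved together. These within-array differences compare probe sets of unequal affinity, so only their shift between groups has meaning, and the difference between the genes' changes was not tested. The calls of ndhA and ndhH were kept when any 1 array was left out, when the 3'/5' signal was held as a covariate and under each scaling. The probe set of ndhH is not among the 8000 brightest and was not tested where only those were kept.

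**Figure D3:**
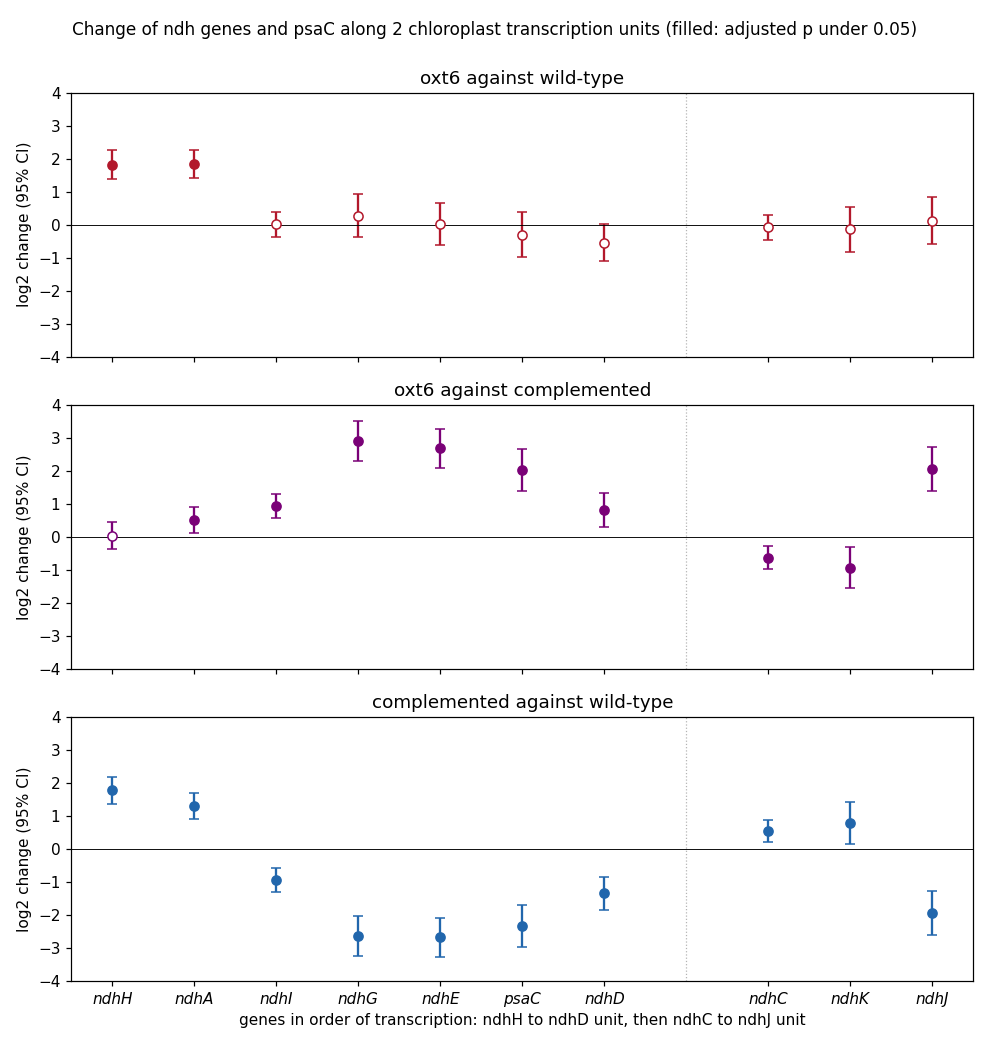
Log2 change (points) with its 95% confidence interval (bars) from limma for the genes of the long unit, ndhH to ndhD with psaC, and of the shorter unit, ndhC to ndhJ, in the order of transcription. Panels give *oxt6* against wild-type, *oxt6* against complemented and complemented against wild-type, and filled points passed at an adjusted p under 0.05. In the top panel ndhH and ndhA lie at 1.81 and 1.84 and the others between -0.54 and 0.27, and in the bottom panel ndhH, ndhA, ndhC and ndhK lie above 0 and the others below.

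The second comparison sets *oxt6* against complemented plants, which make the smaller AtCPSF30 protein and also differ in the 3'/5' signal. Log2 differences of the members ran from -0.93 to 2.92. The members from ndhI to ndhD were higher in *oxt6*, by log2 differences of 0.94 for ndhI, 2.92 for ndhG, 2.69 for ndhE and 0.81 for ndhD (SE 0.24, adjusted p = 0.00782). So was ndhJ, while ndhC (-0.63, SE 0.16, adjusted p = 0.00313) and ndhK were lower. The 2 genes that had risen against the wild-type behaved otherwise: ndhH did not pass, and ndhA was higher by only 0.52 (SE 0.18, 95% interval 0.13 to 0.92, adjusted p = 0.0213). Of 9 members tested 6 were called higher and 2 lower, against 32.3% higher and 37.0% lower over all probe sets. The median was 0.81 over the members and -0.03 over all. Other chloroplast-encoded probe sets leaned the same way, with 31 of 62 tested called higher and 16 lower (median 0.48). Among them the photosystem probe sets had 12 of 20 higher and 3 lower (median 0.82). Those of ribosomal proteins went the other way, with 7 of 19 higher and 10 lower (median -0.75). With the 3'/5' signal as a covariate, a fit that leans on *oxt6* replicate 1, only ndhG, ndhE and ndhK were called, and the count was 3, in a fit that called 7.07% of all probe sets higher and 17.8% lower. The log2 differences of the calls lost there were 1.68 for ndhJ, 0.86 for ndhI, 0.25 for ndhA, 0.12 for ndhD and -0.32 for ndhC. The call of ndhA was lost without *oxt6* replicate 2 (0.43) or 3 (0.52), without either line 5 array (0.42 and 0.47) and with line 6 alone (0.29), that of ndhK without *oxt6* replicate 1 (-0.74) or with line 6 alone (-0.83), and that of ndhD with line 5 alone (0.50).

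The third comparison, complemented plants against the wild-type, shows how far the transformants differ from plants with both proteins. It split the long unit into a raised start and a lowered remainder. In complemented plants ndhH and ndhA were 3.43-fold and 2.49-fold higher than in the wild-type, ndhI was 1.91-fold lower (log2 -0.93, SE 0.17, adjusted p = 2.39e-04), and ndhG and ndhE were 6.24-fold and 6.37-fold lower (log2 -2.64 and -2.67, SE 0.28 and 0.27). The last gene of the unit, ndhD, was 2.55-fold lower (log2 -1.35, SE 0.24, adjusted p = 1.91e-04). The shorter unit was split too, in that ndhC (log2 0.54, SE 0.16, adjusted p = 0.00735) and ndhK (log2 0.79, SE 0.29, adjusted p = 0.0261) were higher and ndhJ, transcribed after them, was 3.82-fold lower (log2 -1.93, SE 0.31, adjusted p = 9.52e-05).

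All 9 tested members were called, 4 higher and 5 lower, in a comparison where 38.0% of all probe sets were called higher and 33.8% lower. Among the higher ones, ndhH passed the filter through its *oxt6* and complemented arrays, as said above. The median was -0.93 over the members and 0.04 over all probe sets. The rise of ndhK rests on few arrays: its log2 difference was 0.39 without wild-type replicate 2 and did not pass, nor did it pass without wild-type replicate 1 (0.82) or without either line 5 array (0.75 and 0.77). With arrays scaled to the 75th percentile, which moves the median change over all probe sets from 0.04 to -0.12, ndhC (0.38) and ndhK (0.63) did not pass. With the 3'/5' signal as a covariate 5 members were called, ndhH, ndhA and ndhK higher and ndhG and ndhE lower, where 24.5% of all probe sets were called higher and 8.58% lower. The calls lost had log2 differences of -1.56 for ndhJ, -0.85 for ndhI, -0.67 for ndhD and 0.24 for ndhC.

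The pair ndhK and ndhJ, also picked after the values were seen, shifted most among neighbours of a unit. The log2 intensity of ndhK minus that of ndhJ ran from -0.19 to 0.33 in complemented arrays and from -2.71 to -2.68 in the wild-type. In *oxt6*, where it ran from -3.34 to -2.46, it stayed near the wild-type range. Between ndhI and ndhG the same quantity ran from 3.30 to 5.27 in complemented arrays, against 2.50 to 2.78 in the wild-type. The 2 lines differed within that range, as the comparison between them shows.

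Lines 5 and 6 carry the same transgene in independent insertions and were set against each other. Both line 5 arrays lay below both line 6 arrays for ndhH, ndhA and ndhI, and above them for ndhG, ndhE, ndhD, ndhJ and ndhK. Over all probe sets tested, both line 5 arrays were above both line 6 arrays at 22.6% and below at 39.5%, so 5 of 9 members above and 3 of 9 below is a description of 2 arrays against 2. In limma 1 member passed, ndhG, with means of 147 in line 5 and 67.6 in line 6 (log2 1.1, SE 0.19, adjusted p = 0.00491). No member was called without line 5 replicate 2, without line 6 replicate 1 or relative to other chloroplast-encoded probe sets. Over all probe sets 3.20% were higher in line 5 and 1.06% lower. By limma 0 members were called lower in line 5, while at an unadjusted p under 0.05 it gave 3 higher and 2 lower, where 7.62% of all probe sets were higher and 6.81% lower. The nearest to the threshold were ndhE, with means of 199.7 in line 5 and 106 in line 6 (log2 0.91, adjusted p = 0.0681), and ndhI, with 1756 in line 5 and 2430.3 in line 6 (log2 -0.47, adjusted p = 0.0823).

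Within groups the members did not all vary together. The lowest wild-type array was replicate 2 for 7 of 10 members, among them ndhJ at 339 and ndhE at 673, but for ndhH and ndhA it was replicate 3, at 18.4 and 168. In *oxt6* replicate 1 was lowest for 8 of 10 members and highest for ndhC. Relative to its mean the wild-type spread was wide for ndhK, at 101 ± 52.0 (SD, n = 3), and for ndhJ, at 663 ± 343 (SD, n = 3). It was narrow for ndhI, at 3945 ± 241 (SD, n = 3).

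Genes that flank the members were read on the same arrays. PsaC, the iron-sulfur subunit of photosystem I that is transcribed between ndhE and ndhD, read 1645, 1621.5 and 1604 in *oxt6*, 596, 612, 226 and 303 in complemented plants, and 2096, 1941 and 1977 in the wild-type. It moved like its neighbours in the unit, with no call in *oxt6* against the wild-type (log2 -0.30, adjusted p = 0.508) and a 5.03-fold lower level in complemented plants than in the wild-type (log2 -2.33, SE 0.29, adjusted p = 1.37e-05). It also differed between the lines, by a log2 of 1.20 (line 5 over line 6, adjusted p = 0.00127). The ribosomal protein gene rps15, the annotated neighbour on the other side of ndhH, read 321, 368 and 407 in *oxt6*, 95.6, 46.3, 68.0 and 58.6 in complemented plants, and 419, 285 and 812 in the wild-type. It lies next to ndhH and was itself not called in *oxt6* against the wild-type (log2 -0.34, 95% interval -1.05 to 0.38). In complemented plants rps15 was 6.99-fold lower than in the wild-type (log2 -2.81, SE 0.31, limma adjusted p = 4.98e-06), where ndhH was higher. NdhB, whose probe set was too dim for the main fit, read 33.8, 45.1 and 38.5 in *oxt6*, 22.6, 26.2, 20 and 16.1 in complemented plants, and 53.7, 46.3 and 92.1 in the wild-type. In the fit to all probe sets ndhB was lower in complemented plants, near the floor, than in the wild-type (log2 -1.51, SE 0.24, limma adjusted p = 8.77e-05). It was not called there in *oxt6* against the wild-type (log2 -0.64, limma adjusted p = 0.127). Its complemented arrays were the lowest of the 3 groups, as for ndhI, ndhG, ndhE, ndhD, ndhJ and ndhF.

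Other chloroplast genes give the members a setting. Of 67 other chloroplast-encoded probe sets 62 were tested, and in *oxt6* against the wild-type 3 were called higher and 5 lower, with a median of -0.16. The 3 that rose were rps4, a ribosomal protein gene next to ndhJ in the genome (log2 0.86), petG of the cytochrome b6f complex (0.80) and the protease gene clpP (0.63), each with a smaller change than ndhH and ndhA. The 5 that fell were psbC of photosystem II, rbcL, petA, atpH and ycf1, between -0.998 and -0.63. Among 20 photosystem probe sets 1 was called, and among 19 of ribosomal proteins 1. In complemented plants against the wild-type 15 of the 62 were called higher and 35 lower, with a median of -0.83 beside -0.93 for the ndh members. When every array was set relative to the mean of these 62 probe sets, ndhH and ndhA stayed called higher in complemented plants than in the wild-type (2.23 and 1.77), and ndhI (-0.48, adjusted p = 0.135) was no longer called.

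**Figure D4:**
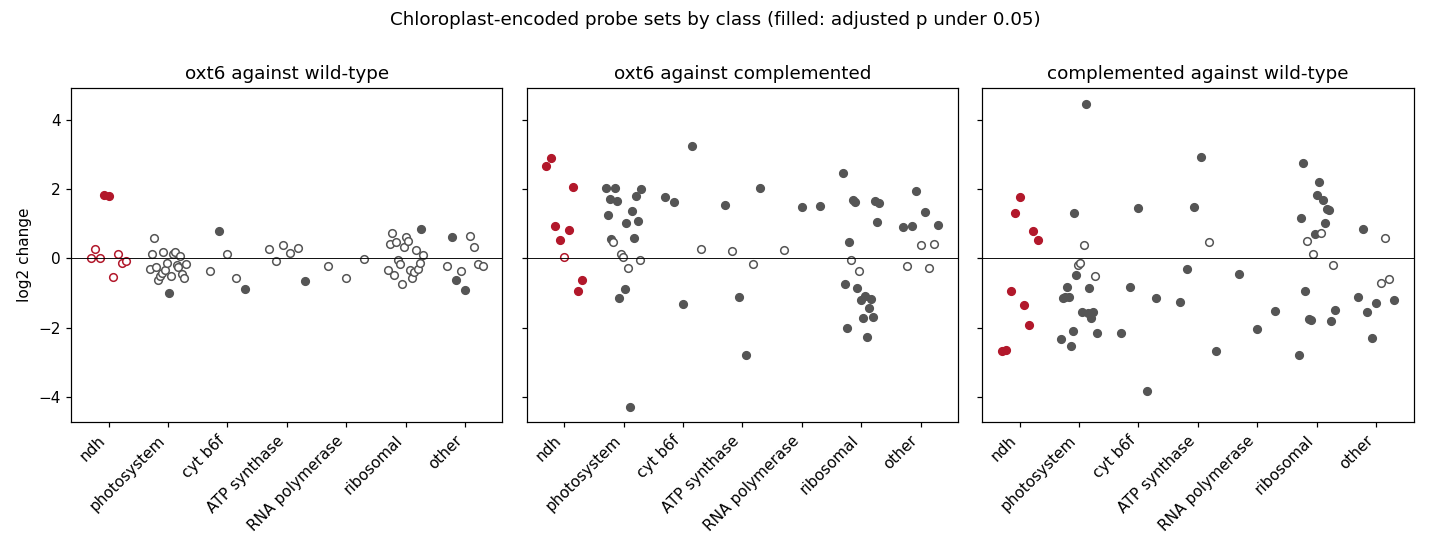
Log2 change from limma of each tested chloroplast-encoded probe set (points), by class on the horizontal axis, in *oxt6* against wild-type (left), *oxt6* against complemented (middle) and complemented against wild-type (right), with filled points at an adjusted p under 0.05. The ndh members are red. In the left panel ndhH and ndhA, at 1.81 and 1.84, lie above every other chloroplast-encoded probe set shown, the next being rps4 at 0.86.

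Complex I of mitochondria has subunits encoded by the nad genes, the relatives of the ndh genes. Of 15 nad probe sets 11 were tested, several of them reading the same gene, and in *oxt6* against the wild-type 1 was called, a nad1 probe set at -1.09. For *oxt6* against complemented plants 7 of the 11 were called higher and 0 lower, with a median of 1.34. Over all probe sets 32.3% were called higher there and 37.0% lower. In complemented plants against the wild-type 9 were called lower, with a median of -1.61 over the 11, where 33.8% of all probe sets were called lower. A lower level in complemented plants was thus measured in mitochondrial transcripts as well as in ndhI, ndhG, ndhE, ndhD and ndhJ. The members ndhH, ndhA, ndhC and ndhK went the other way.

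Nuclear genes of the NDH complex were looked up by a list of 20 subunits and linkers, of which the annotation names 4 with a probe set. NDHL, a membrane subunit next to the stromal arm, read 825, 974 and 879.8 in *oxt6*, 277, 374, 352 and 379 in complemented plants, and 339, 356 and 313 in the wild-type. Only the *oxt6* arrays were high, 2.65-fold above the wild-type (log2 1.41, SE 0.17, adjusted p = 7.66e-05). NDHV, which helps to hold the stromal arm together, read 373, 645.5 and 596 in *oxt6*, 108.5, 125.5, 100.8 and 98.6 in complemented plants, and 163, 173 and 174 in the wild-type, and was 3.07-fold higher in *oxt6* than in wild-type plants (log2 1.62, SE 0.21, adjusted p = 9.04e-05). NDHN of the stromal arm and NDHS, which docks ferredoxin, were not called in that comparison (log2 -0.42 and 0.43) but were 3.31-fold and 3.47-fold higher in complemented plants than in the wild-type (log2 1.73 and 1.79). The 4 nuclear subunits named thus fell into 2 that were high in *oxt6* and 2 that were high in complemented plants.

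Of 18 assembly and RNA maturation factors 8 have a named probe set, and 2 were bright enough to be tested. CRR41, needed to assemble the stromal arm, read 153, 242 and 252 in *oxt6*, 46.7, 57.9, 60.7 and 58.2 in complemented plants, and 56.2, 68.5 and 42.9 in the wild-type. It was 3.78-fold higher in *oxt6* than in wild-type plants (log2 1.92, SE 0.22, adjusted p = 4.87e-05). CRR42, which acts in the same assembly, was not called against the wild-type (log2 0.18). The editing factors CRR21, CRR22, CRR28, OTP84, OTP85 and ELI1 were too dim to be tested, and none read above 61.8 in any array.

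Other cyclic electron flow around photosystem I runs through PGR5 and PGRL1. PGRL1B read 164, 183 and 176 in *oxt6*, 185, 227, 243 and 215 in complemented plants, and 76.1, 69.4 and 77.6 in the wild-type. Both *oxt6* and complemented plants were high, with 2.32-fold in *oxt6* (log2 1.22, SE 0.16, adjusted p = 1.02e-04) and 2.89-fold in complemented plants over the wild-type (log2 1.53, SE 0.15, adjusted p = 1.74e-06). PGR5 and the assembly factor CRR6 are named here only through the study's own list of changed genes, chosen on these arrays, so that their direction is not independent evidence. PGR5 averaged 3009 ± 235 in *oxt6* (SD, n = 3) and 672 ± 106 in complemented plants (SD, n = 4), against 1167 ± 176 in the wild-type (SD, n = 3). CRR6 averaged 93.6 ± 17.3 in *oxt6* (SD, n = 3) and 270.0 ± 52.4 in complemented plants (SD, n = 4), against 203 ± 21.0 in the wild-type (SD, n = 3). NDHM, NDHO, CRR2, CRR4 and the sigma factor SIG4, which serves ndhF, have no named probe set here.

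The probe sets most like the ndh members were found by the Pearson correlation, over the 10 arrays, with the mean log2 profile of the members. The highest values were 0.984 for a probe set with no gene named here, 0.983 for AT5G44010, 0.978 for AT5G05800, 0.975 for AT5G47890 and 0.974 for AT5G53880. The points share the 3 groups and the array-wide differences described above, so the values describe a pattern and carry no test. AT5G47890 averaged 3783 in *oxt6* and 936 in complemented plants, against 2288 in the wild-type. AT5G44010 averaged 369 in *oxt6* and 78.0 in complemented plants, against 211 in the wild-type.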

How the data were processed

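The authors processed the array scans with PLIER in ArrayAssist and deposited one intensity per probe set, linear and floored at 16; the version is not given in the sources used here. Here log2(intensity + 1) was compared in limma 3.58.1 under R 4.3.3, with a mean for each group and eBayes with a trend, over 12453 probe sets. These have the highest average log2 value after 64 controls were removed, and match in number the study's total set. Tests were two-sided, with Benjamini-Hochberg adjustment and a threshold of 0.05. Lines 5 and 6 were compared in a fit that gave each line its own mean. The annotation names 1 gene for 13513 probe sets, several for 503 and none for 8730, so many list genes have no value.

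Members and lists were chosen with earlier results of these data known. The text names all members, with ndhB, psaC, rps15 and nuclear genes of the complex, up to 2 called genes per list and the 5 most similar profiles. Beside the lists in the text, plastid sigma factors and phage-type polymerases had 1 named probe set among 8 genes (RPOTMP, too dim to test), and plastid RNA decay enzymes had 0 among 6. The 25 alternatives were the methods' t-test, other scalings, filters and offsets, fewer groups, a block, a covariate, array weights, single lines, a stricter threshold and each array left out. The fit was tested on simulated data. Plots were made in matplotlib 3.10.9 with Python 3.11.15. Whether pools were grown separately is not stated, so p-values measure the spread between these samples.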

Additional observations from a re-analysis of the deposited data

Results flagged for a closer look

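The log2 difference of line 5 minus line 6 passed the limma test for ndhG, at 1.1 (SE 0.19, adjusted p = 0.00491). The arrays read 130.2 and 164 in line 5, against 63.1 and 72.1 in line 6. It was not called without line 5 replicate 2 or without line 6 replicate 1, fits in which the lone array of a line is assumed to vary like the other groups. The lines carry the same transgene, and the cause of the difference was not tested.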

How the results depend on the processing

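Of 206 values of single members in *oxt6* against the wild-type over the alternatives, 205 kept their side of the threshold, and 1, ndhC with array weights (log2 -0.35, adjusted p = 0.0210), passed in addition. For *oxt6* against complemented plants 203 of 224 were kept and 21 lost, and for complemented plants against the wild-type 206 of 224 were kept and 18 lost. No called value changed sign. With only the 8000 brightest probe sets 1 member was called in *oxt6* against the wild-type, since ndhH is then not tested. In that fit 37.9% of all probe sets were called. Relative to other chloroplast-encoded probe sets 5 were called in *oxt6* against complemented plants and 0 between the lines, where 59.3% and 1.63% of all probe sets were called. With the 3'/5' signal as a covariate the counts were 3 in *oxt6* against complemented plants, 5 in complemented plants against the wild-type and 3 between the lines. Over all probe sets 24.8%, 33.0% and 8.70% were called in these fits. Between the lines 2 were called with 75th percentile scaling, 2 with the 8000 brightest probe sets and 5 with array weights, whose fit stopped before convergence. Over all probe sets the calls between the lines were 531, and became 673, 581 of 8000 and 2602 under these 3 settings, 1083 with the covariate and 203 relative to other chloroplast-encoded probe sets. Leaving out 1 array gave 0 to 3 members between the lines, with 0 without line 5 replicate 2 or line 6 replicate 1 and 3 without *oxt6* replicate 1. The cause of these shifts was not tested. Scaling to the 75th percentile moved the median over all probe sets from -0.03 to 0.17 in *oxt6* against complemented plants, and setting arrays relative to other chloroplast-encoded probe sets moved it to -0.39.

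With replicate number as a block the counts stayed at 2, 8, 9 and 1, where 26.6%, 65.4%, 67.8% and 4.34% of all probe sets were called. Same-numbered *oxt6* and wild-type arrays deviated with correlations of 0.10, -0.21 and 0.13. These come from few arrays and leave out complemented plants, so they cannot show whether same-numbered samples share a batch. With this replicate block the 3576 probe sets called in *oxt6* against the wild-type were 3311.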
